A study of Drosophila melanogaster with 8 samples.

Results

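The genes described here are 88 Drosophila melanogaster genes with a CG number as their symbol, some of them with other synonyms. Their array ratio lay far to one side in a comparison of larval with adult RNA. They were taken from 4695 CG-named genes among 10658 genes on the array. The rule kept genes with a mean log2 ratio of -1.5 or less over the 8 arrays and a negative ratio on every one of them. These same ratios therefore chose the genes, and their size, their sign and their threshold calls are given below as a description with no test.

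A CG number is the identifier that the genome annotation gave to a predicted gene, and it stays in use until a gene receives a name from a mutant phenotype, a product or a family. Fly larvae feed almost without pause and secrete serine proteases, lipases, peptidases and glycosidases into the midgut, whose lining is a chitin-containing sheet called the peritrophic matrix. Adults hold tissues that larvae lack or hold only in immature form, such as flight muscle, compound eyes and mature gonads.

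The 8 arrays were hybridised with larval and adult RNA together, one per channel. Per the labels, Canton S, a wild-type laboratory strain, gave the animals, each sample mixed stages, and polyA RNA was selected. Larvae were in channel 1 on replicates 1, 3, 6 and 8, and adults on replicates 2, 4, 5 and 7. The labels describe portions of a single TRIzol homogenate that were carried through separately, so errors and p-values cover technical spread and no spread between animals. Because whole animals were pooled, fewer cells of a type and less RNA per cell cannot be told apart.

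A ratio below is the log2 ratio of the 2 channels after each array was centred on the median of its gene spots, with the sign reversed where adults were in channel 1 (the turned log2 ratio of the plots). The sources used here do not say which channel was the numerator, so sides are called negative and positive and no stage is attached to either. Errors are SDs over the 8 arrays (n = 8).

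Marker lists did not settle the side in full. Of 23 genes listed as larval markers, 9 were measured, and in the limma fit of all genes 7 of them passed an adjusted p of 0.05 on the negative side, 1 passed on the other side and 1 did not pass. Lcp9, a larval cuticle protein gene, stood at -2.75 ± 0.68 and Sgs1, a salivary glue gene, at -2.38 ± 0.76, but Lcp65Ad stood at 2.59 ± 0.44. From 32 symbols listed as adult markers 17 genes were measured, of which 6 passed as positive, 5 as negative and 6 did not pass. The flight muscle genes TpnC4, fln and Act88F were at 3.87 ± 0.50, 2.35 ± 0.68 and 1.64 ± 0.80, while Acp76A, an accessory gland protein gene, was lowest of the 17 at -0.55 ± 0.43. Adult markers that passed as negative lay between -0.55 and -0.37, and those that passed as positive between 0.50 and 3.87. Of all genes, 2967 (27.8%) passed as negative and 3110 (29.2%) as positive, which is 57.0% together. This split depends on the centring: it was 3707 to 2059 with arrays centred on all spots and 6059 to 1040 with values as deposited, where the median of all genes was -0.15 and -0.45. Under these centrings 9 and 11 of the adult markers passed as negative.

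The 88 genes had a median ratio of -2.14, against -0.06 for all CG-named genes. Means ran from -3.60 to -1.53. At or below -3 there were 11 genes, 15 lay between -3 and -2.5, 27 between -2.5 and -2 and 35 above -2. The bounds were met by 88 of 4695 CG-named genes (1.87%) and by 82 of 5963 genes with another name (1.38%). On the positive side, 115 CG-named genes met the mirrored bounds. A single spot stood for 83 of the 88 genes and 5 had 2 spots.

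**Figure D1:**
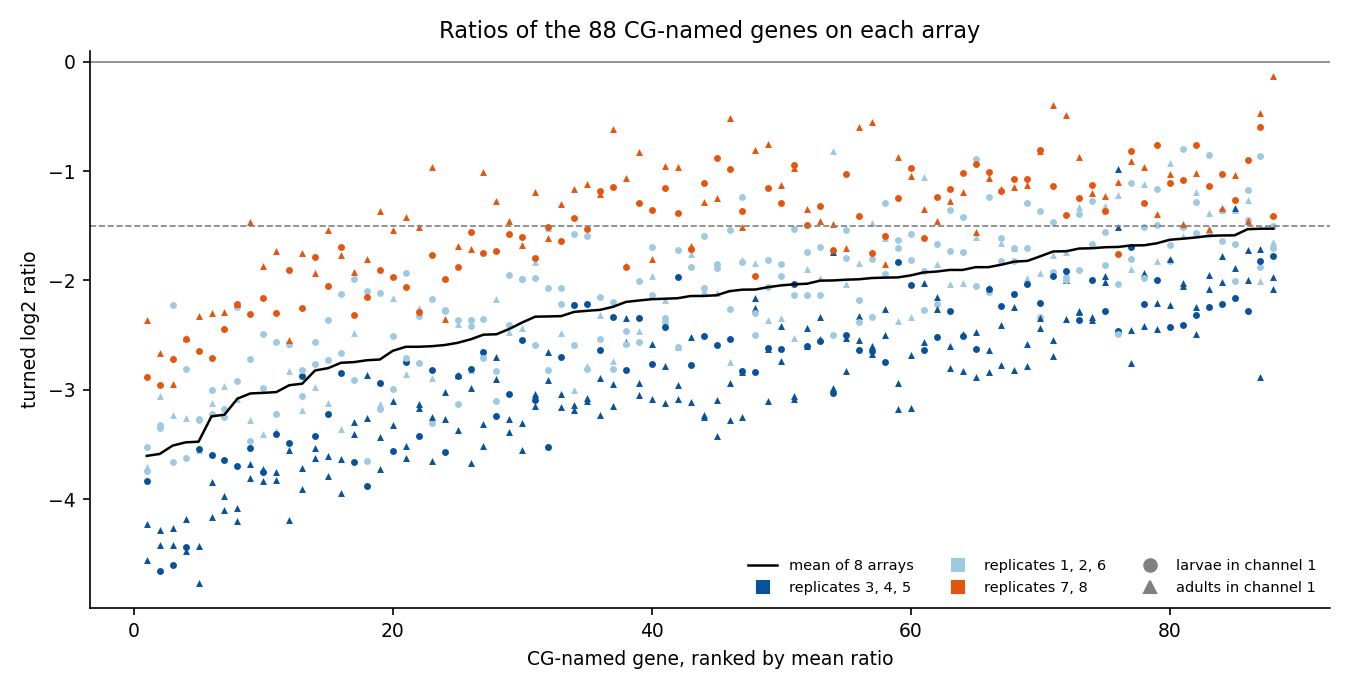
Log2 ratio of each of the 88 CG-named genes on each of the 8 arrays (points; circles for larvae in channel 1, triangles for adults in channel 1), ranked by the mean of the arrays (black line); the dashed line marks -1.5. Replicates 3, 4 and 5 (dark) hold the lowest value of 87 genes and replicates 7 and 8 (orange) the highest of 77.

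The gene with the lowest mean was CG18180, a serine protease gene with the RefSeq synonym SP151, at -3.60 ± 0.70, which is 12.2-fold after centring. Its values were -3.74, -3.83, -3.52 and -2.88 on replicates 1, 3, 6 and 8 and -3.71, -4.56, -4.23 and -2.36 on replicates 2, 4, 5 and 7. Replicates 7 and 8 lay nearest to 0, and the 2 dye orientations overlapped. The deposited ratios, which are not centred, can be rebuilt as ratios of whole numbers. For CG18180 the median over arrays was 1614 for the smaller number and 26047 for the larger. Such numbers are lower bounds, since common factors are lost.

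CG14143, for which no role is given here, stood at -3.59 ± 0.75. It read -3.35, -4.65, -3.32 and -2.95 on replicates 1, 3, 6 and 8 and -3.06, -4.28, -4.42 and -2.66 on replicates 2, 4, 5 and 7. CG15225 was at -3.51 ± 0.87, with -2.22, -4.60, -3.66 and -2.72 on replicates 1, 3, 6 and 8 and -3.23, -4.27, -4.42 and -2.95 on replicates 2, 4, 5 and 7. In both genes replicates 3, 4 and 5 were below -4 and the other 5 arrays above it, and the orientations overlapped.

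CG13705 (-3.47 ± 0.82), CG11300 (-3.24 ± 0.61), CG8664 (-3.08 ± 0.83) and CG32249 (-3.03 ± 0.77) completed the genes without a given role at or below -3. Each of these 4 was lowest on replicate 4 or 5. CG32603, at -2.94 ± 0.71, CG11350, CG31086 (-2.72 ± 0.83), CG4830 (-2.61 ± 0.63) and CG7465 were among those between -3 and -2.5. CG15226, at -2.82 ± 0.70, was not matched to a RefSeq gene by its identifier, and RefSeq lists its symbol as a synonym of 3 genes. No role is given here for 59 of the 88 genes, whose means ran from -3.59 to -1.53 with a median of -2.08. The 29 with a role follow.

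Serine proteases were the largest group with a role given here, with 7 genes recognised by a RefSeq synonym of the form SP and a number. Trypsin-like enzymes of this kind cut food protein in the midgut, while others act in immunity and development. After CG18180 came CG10472 at -3.03 ± 0.81, CG17571 at -3.02 ± 0.75, CG8952 at -2.27 ± 0.74, CG8299 at -1.90 ± 0.62, CG5246 at -1.59 ± 0.39 and CG17475 at -1.59 ± 0.40. CG10472 read -3.46, -3.54, -2.72 and -2.30 on replicates 1, 3, 6 and 8 and -3.28, -3.68, -3.81 and -1.47 on replicates 2, 4, 5 and 7. Replicate 7 was nearest to 0 with replicate 8 next, and the orientations overlapped.

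The other genes with such a synonym, a list taken after the values of the 88 genes were seen, were tested in the same fit. With members of the set left out there were 132, of which 86 passed as negative (65.2%, against a background of 27.8%), 15 as positive (11.4%, against 29.2%) and 31 did not pass, with a median of -0.43 against -0.01 for all genes. The CG-named genes of this and the next lists were scored by the rule and left out, so they are not independent of it. The list also holds the named Jonah proteases and trypsins, with Jon25Bi at -4.23 ± 0.81. CG18179, adjacent to CG18180, was at -1.11 ± 0.36 (limma adjusted p = 1.99e-05). On the other side CG18735 reached 3.31 ± 0.83 (4.6e-07). The synonym is not a strict mark of a protease: Aplip1, a kinesin cargo adaptor gene, carries it too.

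The 4 lipase genes with synonyms of the form DmelL and a number were CG6296 (-3.48 ± 0.82), CG6295 (-3.23 ± 0.66), CG6271 (-2.57 ± 0.59) and CG6283 (-2.03 ± 0.49). Lipases of this family resemble vertebrate pancreatic lipase, which releases fatty acids from dietary fat. CG6296 read -2.81, -4.44, -3.62 and -2.53 on replicates 1, 3, 6 and 8 and -3.26, -4.48, -4.18 and -2.52 on replicates 2, 4, 5 and 7. Replicates 3, 4 and 5 were again below -4, and the orientations overlapped. The other 3 genes of the list passed on the same side: CG17192 at -1.40 ± 0.30 (limma adjusted p = 1.53e-06), CG17191 at -1.24 ± 0.45 (3.18e-05) and CG6277 at -0.99 ± 0.71 (0.00127).

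Chitin-binding proteins include structural proteins of the peritrophic matrix. The genes given this role here were CG17145 (-2.96 ± 0.73), CG6933 (-2.80 ± 0.78), CG7290 (-2.61 ± 0.77), CG7298 (-2.54 ± 0.69) and CG10725 (-1.66 ± 0.56). Genes without a given role may belong to this class too. CG17145 read -2.58, -3.49, -2.58 and -1.91 on replicates 1, 3, 6 and 8 and -2.83, -4.19, -3.55 and -2.54 on replicates 2, 4, 5 and 7. Its array nearest to 0 was replicate 8, with replicates 1, 6 and 7 close to each other, and the orientations overlapped.

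Among the genes with a role given here, peptidase genes of other classes lay between -2.64 and -1.70. The aminopeptidase genes CG31233, CG8773 and CG8774, whose enzymes take residues from the start of a peptide, stood at -2.64 ± 0.71, -1.97 ± 0.49 and -1.92 ± 0.44. The carboxypeptidase genes CG8560 and CG8562, whose enzymes take residues from the end, stood at -1.86 ± 0.57 and -1.70 ± 0.38. CG33128, an aspartic protease gene of the pepsin type, was at -2.14 ± 0.57 and CG15255, an astacin metalloprotease gene, at -1.99 ± 0.60.

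The endonuclease genes CG6839, CG3819 and CG14120, of a family that cuts DNA and RNA, stood at -2.75 ± 0.67, -2.73 ± 0.80 and -2.14 ± 0.87. CG15534, with the synonym alphaSmase for an acid sphingomyelinase, which splits a membrane lipid, was at -2.20 ± 0.57. CG9259 and CG10513 belong to the ecdysteroid kinase-like genes, a large insect family named for an enzyme that phosphorylates the moulting hormone, and were at -2.17 ± 0.59 and -1.98 ± 0.74. Of the 36 other genes with synonyms of that family, 29 passed as negative (80.6%, against 27.8%), 2 as positive and 5 did not pass, with a median of -0.55. Among these JhI-26 was at -1.62 ± 0.62 (limma adjusted p = 2.42e-05), and CHKov1 and CG31099 were on the positive side at 1.21 ± 0.53 (7.05e-05) and 1.11 ± 0.42 (7.62e-06).

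**Figure D2:**
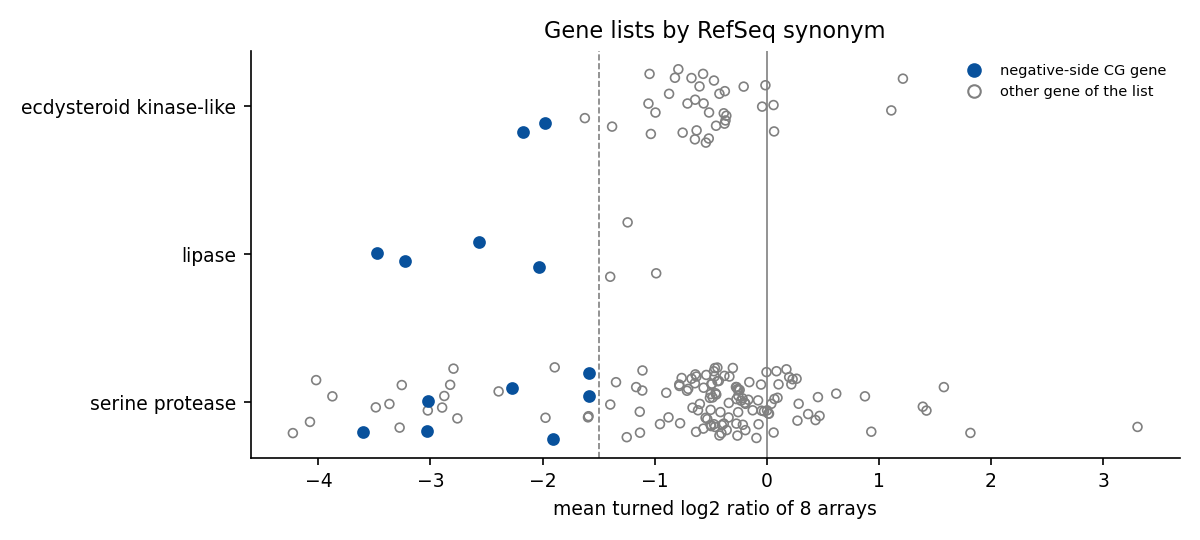
Mean log2 ratio over 8 arrays of genes in 3 lists taken from RefSeq synonyms (x axis; vertical scatter within a list carries no value), with the 88 CG-named genes filled and other genes open; the dashed line marks -1.5. Most open points lie left of 0 in all 3 lists: 86 of 132, 3 of 3 and 29 of 36 passed on the negative side.

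Of 56 digestive hydrolase genes with names of their own (Jonah proteases, trypsins, lysozymes, maltases, amylases, mannosidases and a lipase), 43 were measured. On the negative side 41 passed (95.3%, against a background of 27.8%). LManII passed on the positive side at 0.50 ± 0.30 but not with values as deposited, and Mal-A7 did not pass, at -0.17 ± 0.45. The list had a median of -1.97, beside -2.14 for the 88 CG-named genes, which were chosen by a bound on this value.

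Genes that lie next to each other on a chromosome often share descent and expression. In RefSeq gene order, 16 of the 87 placed genes (18.4%) had another of the set as the adjacent protein-coding gene, and 34 (39.1%) had one within 3 genes. Among the 112 placed CG-named genes of the positive side the counts were 13 (11.6%) and 20 (17.9%). With at most 2 genes between neighbouring members, 34 of the 88 genes fell into 14 runs, of which 10 held 2 members, 2 held 3 and 2 held 4.

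Of the adjacent genes outside the set 108 were measured, 70 of them CG-named. The rule scored these 70 on the same ratios and left them out, so they are not independent of it, while it did not score the other 38. In the limma fit, 66 of these passed as negative (61.1%, against a background of 27.8%), 15 as positive (13.9%, against 29.2%) and 27 did not pass, with a median of -0.41. Among the 38 with another name, 14 passed as negative (36.8%, against 24.6% of all genes with another name), 8 as positive (21.1%, against 31.7%) and 16 did not pass, with a median of -0.06. Among the 70 CG-named, 52 passed as negative (74.3%, against 31.9% of all CG-named genes). Of 153 genes adjacent to the positive-side CG genes, 37 passed as negative (24.2%) and 44 as positive (28.8%), with a median of 0.03. All 10 adjacent genes of the 3 synonym lists passed on the negative side, and 56 of the other 98 (57.1%) did. Neighbouring genes can be close copies, and without probe sequences here the signal that copies share could not be measured.

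The adjacent genes outside the set went both ways in size. Prosalpha6T, a testis-specific proteasome subunit gene, was at -2.15 ± 0.70 (limma adjusted p = 4.1e-06) and obst-F, a chitin-binding protein gene, at -1.75 ± 0.69 (1.28e-05). TwdlT, a cuticle protein gene adjacent to CG6271, was at 2.79 ± 0.62 (2.24e-07), and Plp, a centriole protein gene adjacent to CG13460, at 1.49 ± 0.43 (6e-06). At or below -1 there were 17 adjacent genes and at or above 1 there were 6. These neighbours were named after their values were seen.

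**Figure D3:**
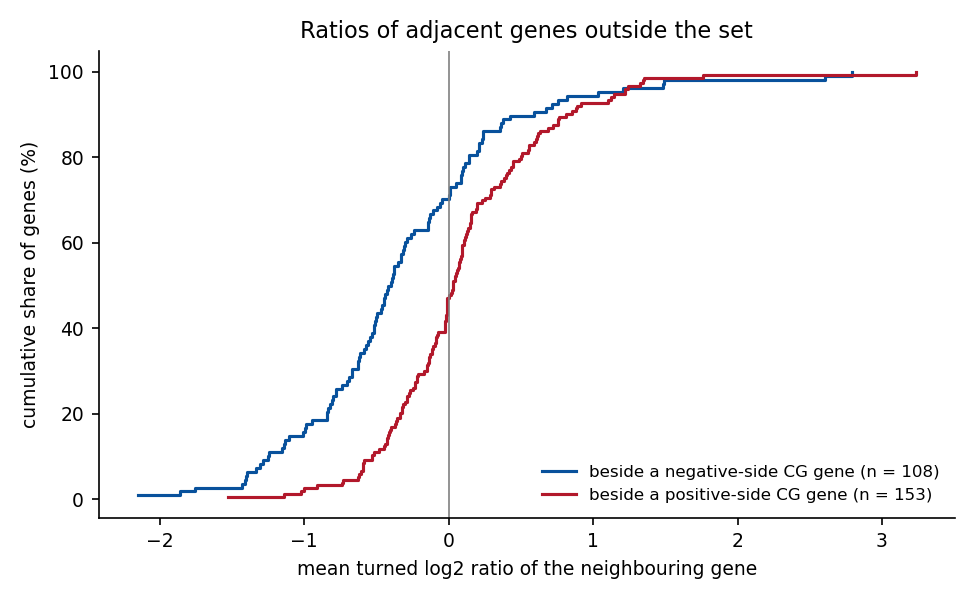
Cumulative share (%) of adjacent genes outside the set at or below each mean log2 ratio, for genes beside the negative-side CG genes (blue, n = 108) and beside the positive-side CG genes (red, n = 153). The blue curve lies to the left up to a ratio of 1, with a median of -0.41 against 0.03; 70 of the 108 genes are CG-named and were scored by the rule.

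A run of chitin-binding genes and a run of lipase genes each held 4 members. In the first, CG7298 and CG7290, then CG6933 and CG17145, were separated by CG6996 (-1.15 ± 0.47) and CG7017 (-1.34 ± 0.64), with obst-F and CG17147 (-0.81 ± 0.49) at the ends. The 4 genes of this stretch outside the set all passed as negative, and the next gene, Su(var)3-3, stood at 0.57 ± 0.92. In the second, CG6296, CG6295, CG6283 and CG6271 were interleaved with CG17192, CG17191 and CG6277, and the run ended at TwdlT on the positive side.

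A run of 3 held CG16812 (-1.93 ± 0.57), CG15480 (-1.82 ± 0.65) and CG16815 (-1.68 ± 0.53), with CG16813 between them at 0.76 ± 0.30 on the positive side. Prosalpha6T and Mabi (-2.32 ± 0.62) followed. The other run of 3 was CG32249, CG7465 (-2.59 ± 0.61) and CG11350 (-2.75 ± 0.85), next to CG13722 at 1.21 ± 0.33. Between CG32249 and CG7465 lay CG32248, not measured, and CG11349, which passed as negative at -0.84 ± 0.28. Pairs with at most 1 gene between them included CG6839 and CG3819, CG8773 and CG8774, CG8562 and CG8560 around CG18417 (-0.84 ± 0.29), CG8664 and CG8661, CG30457 and CG10953, and CG11470 and CG7567. In 3 of the 4 larger runs, a gene on the positive side thus lay directly beside or between members.

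**Figure D4:**
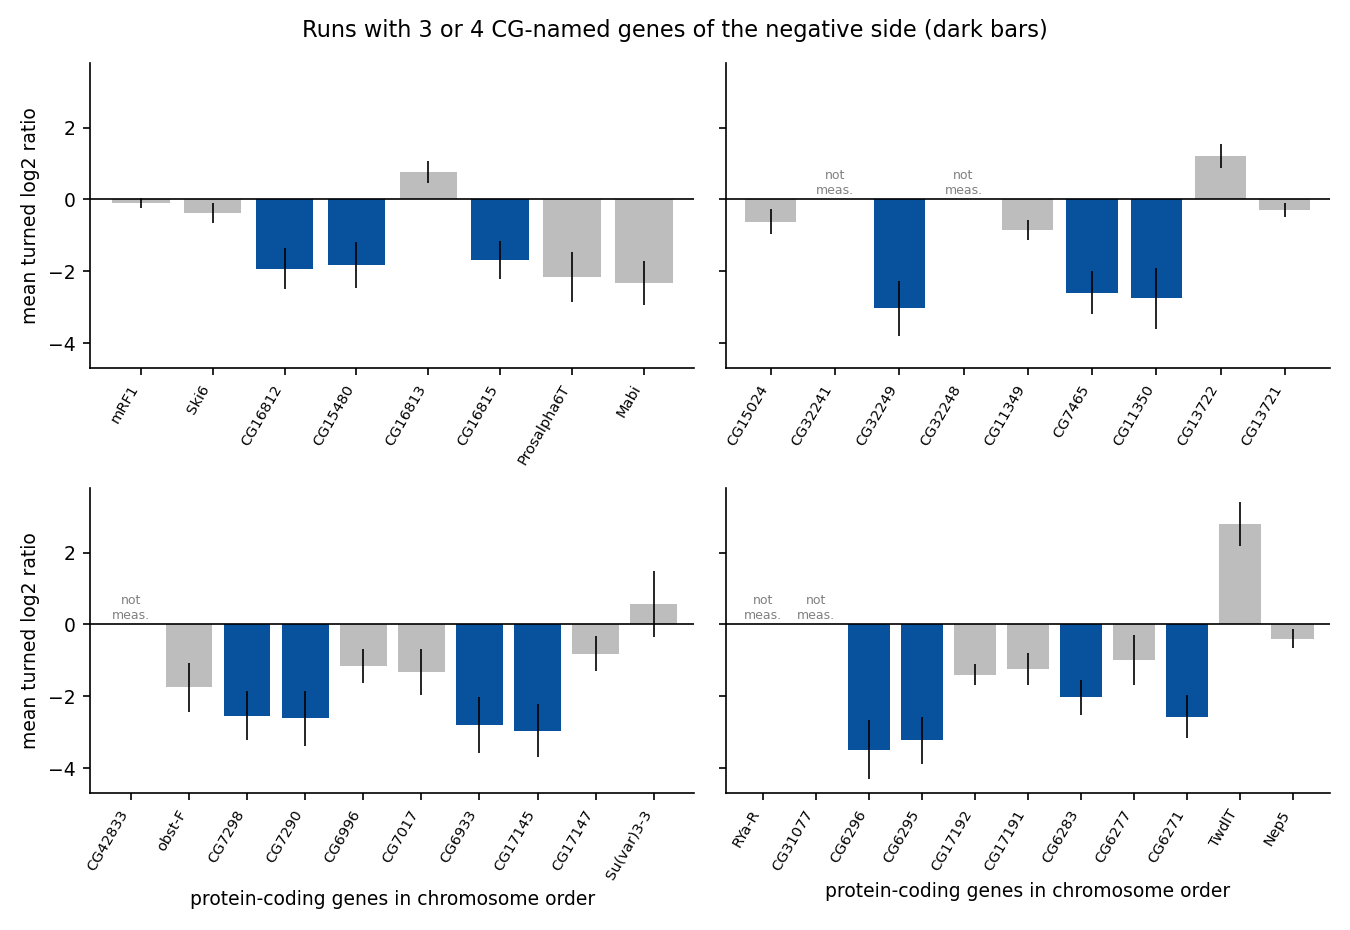
Mean log2 ratio (bars, with the SD over 8 arrays) of protein-coding genes in RefSeq order in the runs with 3 or 4 of the CG-named genes; dark bars are the CG-named genes of the set, grey bars other genes, and genes not measured are marked. Members lie between -3.48 and -1.68, while CG16813, CG13722 and TwdlT in the same stretches lie above 0.

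The level of the 88 genes differed from array to array in much the same order. Their median ratio was -2.08, -2.63, -2.03 and -1.42 on replicates 1, 3, 6 and 8 and -2.11, -3.06, -2.84 and -1.32 on replicates 2, 4, 5 and 7. Replicates 3, 4 and 5 held the lowest value of 87 genes, and replicates 7 and 8 were the highest pair in 63. This order was not particular to the 88 genes. Jon25Bi, Jon99Fii and Jon25Bii, the lowest of the digestive hydrolases, were also lowest on replicate 4 or 5, with replicates 7 and 8 the highest pair. With the same centring, the positive-side CG genes had medians of 1.56, 2.35, 1.98 and 1.93 on replicates 1, 3, 6 and 8 and 1.75, 2.29, 2.13 and 2.38 on replicates 2, 4, 5 and 7.

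Centring moved part of this. The median of gene spots as deposited was furthest from 0 on replicates 7 and 8, at 0.81 and -1.02. Without centring, the median of the 88 genes was -2.32, -3.08, -2.62 and -2.44 on replicates 1, 3, 6 and 8 and -2.44, -3.01, -2.93 and -2.13 on replicates 2, 4, 5 and 7. The span over arrays was then narrower, with replicates 3, 4 and 5 still lowest, and replicates 7 and 1 nearest to 0. The uncentred medians of the positive-side CG genes were 1.31, 1.90, 1.38 and 0.91 on replicates 1, 3, 6 and 8 and 1.42, 2.35, 2.03 and 1.57 on replicates 2, 4, 5 and 7. Replicates 3, 4 and 5 were thus furthest from 0 in both sets without centring, whereas with centring replicate 7 was furthest in the positive-side genes.

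**Figure D5:**
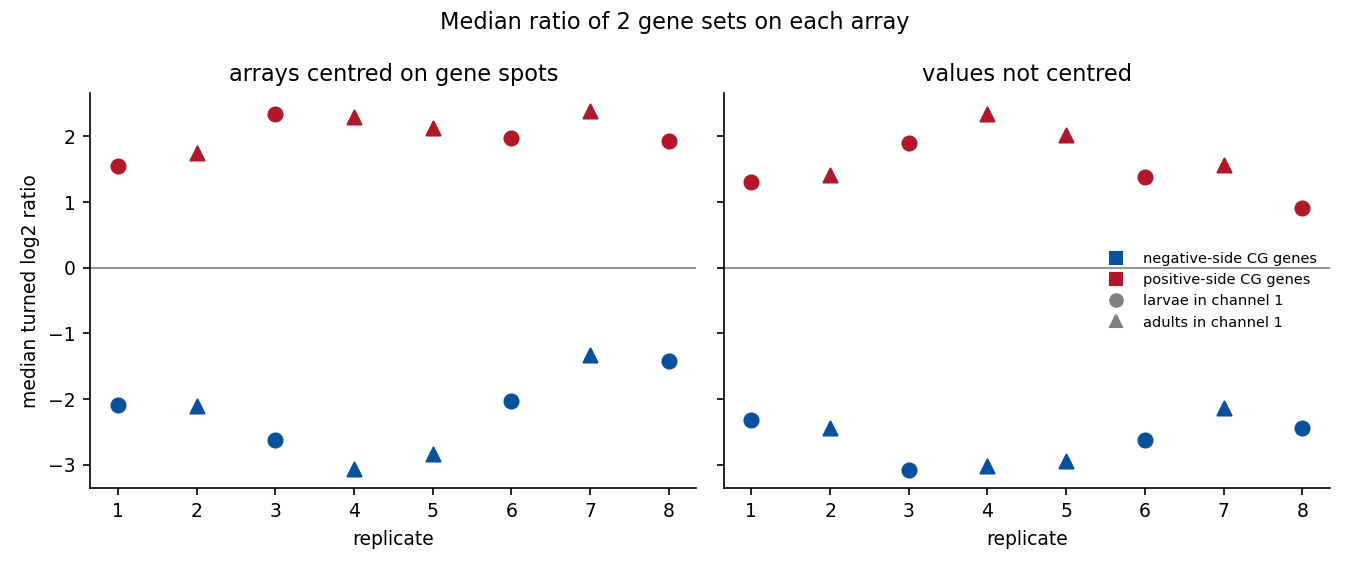
Median log2 ratio on each replicate (x axis) of the 88 negative-side CG genes (blue) and the 115 positive-side CG genes (red), with arrays centred on gene spots (left) and not centred (right); circles have larvae in channel 1 and triangles adults in channel 1. Centred, the blue points run from -3.06 to -1.32 and the red from 1.56 to 2.38.

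On every array 57 of the 88 genes were at or below -1, and 4 genes had an array above -0.5. At or below -2 were 84 genes on replicate 4 and 10 on replicate 7. The SD over arrays had a median of 0.70 in the 88 genes, against 0.47 in the positive-side CG genes and 0.30 in all genes, most of which lay near 0. A wide SD was not particular to the 88 genes. Jon25Bi, Jon99Fii and Jon25Bii, the lowest of the digestive hydrolases, had SDs of 0.81, 0.74 and 0.72. As a share of the absolute mean it had a median of 0.305 in the 88 genes and 0.230 in the positive-side CG genes. These SDs are of centred ratios, and SDs without centring were not computed. Centred, the array medians ran from -3.06 to -1.32 in the 88 genes and from 1.56 to 2.38 in the positive-side CG genes. Without centring they ran from -3.08 to -2.13 and from 0.91 to 2.35, so the positive-side genes then had the wider span. Among the 88 genes the widest SDs were those of CG3348 (-2.10 ± 0.98), CG12934 (-2.24 ± 0.90) and CG9682 (-2.60 ± 0.90), and the narrowest those of CG8562 (-1.70 ± 0.38), CG5246 (-1.59 ± 0.39) and CG17475 (-1.59 ± 0.40). CG3348 read -2.26, -2.54, -1.54 and -0.98 on replicates 1, 3, 6 and 8 and -2.74, -2.93, -3.27 and -0.52 on replicates 2, 4, 5 and 7. It was nearest to 0 on replicates 7 and 8, and the orientations overlapped.

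The dye term compares the 2 orientations. It is separate from the mean that the rule bounded, but the rule also required a negative ratio on every array. That limits how large a dye term one of the 88 genes can have. Their dye counts and overlaps below are therefore a description with no test. In the limma fit the dye term passed an adjusted p of 0.05 for 0 of the 88 genes and 0 of 10658 (0.00%). At an unadjusted p of 0.05 it passed for 1 of the 88 and for 481 of all genes (4.51%). With array weights, which count noisier arrays less, it passed the adjusted threshold for 42 of the 88 and 1177 of all genes (11%). Without replicate 7, 41 of the 88 and 1559 of all (14.6%) passed unadjusted, and 0 adjusted.

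The orientations did not overlap in 1 of the 88 genes and in 4.03% of all genes. That gene, CG13251, was the one at an unadjusted p of 0.05, with a dye term of -0.49 ± 0.10 (SE) and a limma adjusted p of 0.913. It read -2.03, -2.46, -2.49 and -1.76 on replicates 1, 3, 6 and 8 and -1.22, -1.51, -0.98 and -1.10 on replicates 2, 4, 5 and 7, so all 4 arrays with larvae in channel 1 were lower. The dye term was above 0 in 68 of the 88 genes (77.3%), with a median of 0.13, and in 48.5% of all genes.

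Of the 5 genes with more than 1 spot, CG6283 had spot means of -2.38 ± 0.61 and -1.68 ± 0.42, CG32237 -2.03 ± 0.54 and -1.38 ± 0.50 and CG9682 -2.28 ± 0.93 and -2.92 ± 0.93. CG8560 had -2.06 ± 0.67 and -1.65 ± 0.56. The spots of CG12310 lay closest, at -2.38 ± 0.77 and -2.51 ± 0.80. All 10 spots were on the negative side.

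The smaller whole number of a gene's spot had a median over arrays between 156 and 2579.5 (CG7296 and CG15480). The larger ran from 588 for CG7296 to 26047 for CG18180. No gene of the set had a smaller number below 50 in the median.

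At the bound, the members nearest to -1.5 were CG34282 (-1.53 ± 0.60), CG7296 (-1.53 ± 0.82) and CG13962 (-1.53 ± 0.45), and the CG-named genes just outside were CG15281 (-1.49 ± 0.82), CG15731 (-1.45 ± 0.62) and CG13315 (-1.44 ± 0.64). CG34282 read -0.13 on replicate 7 and from -2.07 to -1.41 on the others. CG7715, at -1.86 ± 0.93, met the bound on the mean but not on every array, with 0.15 on replicate 7.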

How the data were processed

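The authors deposited 1 log2 ratio of the 2 channels per spot. Nothing states this unit, and it was taken from the values, which on each array came back as log2 ratios of whole numbers at all 20000 spots within a relative tolerance of 1e-13. Scanning used GenePix and quantification Spot 2.0, per the labels. How background was handled, which spots were filtered, the dyes and the numerator channel were not stated in the labels used here.

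In the probe table, 12246 spots had 1 gene, 86 several and 7668 no gene named here. Spots of a gene were averaged. The gene means entered a limma model (version 3.58.1, under R 4.3.3) with a stage and a dye column and 6 residual degrees of freedom, moderated by eBayes, with Benjamini-Hochberg adjustment over 10658 genes at 0.05, and the fit was tested on simulated data. Gene order, symbols and synonyms came from the RefSeq table of Release 6, and 87 of the 88 genes matched. Whole numbers were rebuilt with Python 3.11.15 and numpy 2.4.6.

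The members, the lists and the alternatives were chosen with earlier results of these data known. The rule for named genes took the 12 lowest means, those nearest the bound, the widest and narrowest, members with several spots and runs of members. Protein groups planned for it were replaced by RefSeq synonyms and known roles after the values were seen, since no protein or promoter sequences were used here. No column of values was left out. Alternative centring, scaling, spot choice, array weights and leaving out replicates were run.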

Additional observations from a re-analysis of the deposited data

Results flagged for a closer look

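Among the 4 arrays of one orientation, a value was singled out where its gap to the nearest other array exceeded Dixon's 95% bound as a share of the range. In 178 checks, of 88 genes and their median in both orientations, 6 values exceeded it (3.37%), and chance gives about 1 in 20. On replicate 7, CG30457 stood at -1.16 against -3.18 to -3.0 on the other arrays with adults in channel 1, CG10953 at -1.12 against -3.10 to -2.78, and CG12934 at -0.62 against -3.14 to -2.73. CG30457 and CG10953 are adjacent genes. On replicate 8, CG14424 stood at -1.15 against -2.43 to -2.34 and CG11470 at -1.40 against -2.0 to -1.92. CG33128 stood at -2.77 on replicate 3 against -1.88 to -1.71. After centring, the median of the 88 genes lay nearest to 0 on replicates 7 and 8, and without centring on replicates 7 and 1, and the part of an array difference in these values was not tested.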

How the results depend on the processing

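The rule kept 88 genes, 105 with arrays centred on all spots, 156 with values as deposited, 99 with arrays scaled to one spread, 92 with the brightest spot of a gene and 85 to 98 with 1 replicate left out, highest without replicate 7. With a bound of -2 it kept 53. All 88 remained under each centring and scaling named here, and at most 3 were lost without a replicate. Staying under the other centrings is no test, since each shifted all gene means down equally. No member could then fail the bound on the mean. The median of the 88 went from -2.14 to -2.28 centred on all spots, to -2.57 as deposited and to -2.31 scaled. It ran from -2.26 to -2.02 with a replicate left out. The median of all genes moved from -0.01 to -0.15 centred on all spots and to -0.45 as deposited, and the calls over all genes from 2967 negative and 3110 positive to 3707 and 2059 and to 6059 and 1040. Calls of the stage difference numbered 5350 to 6280 with a replicate left out. With array weights the dye calls went from 0 to 1177 of all genes and from 0 to 42 of the 88, and the cause was not tested. As deposited, adjacent genes on the positive side went from 15 to 8 and those on the negative from 66 to 81 (75.0%, against 56.8% of all genes). Counting the 38 neighbours with another name alone, 14 were negative. Taken up to 3 genes away, 143 of 309 neighbours were on the negative side (46.3%). Digestive hydrolases on the positive side went from 1 to 0 as deposited. Adult markers on the negative side went from 5 to 9 centred on all spots, to 11 as deposited and to 5 to 8 with a replicate left out (8 without replicate 1). Of 128 genes followed singly, 88 were the members, whose side the rule had fixed on these ratios, so their keeping it is no test. Of the 128, 125 kept side and call under every alternative run. The other 3 were Su(var)3-3, whose call was lost under 8 alternatives, LManII, lost as deposited at 0.06, and Mal-A7, which passed as negative at -0.31 centred on all spots and at -0.61 as deposited. Without replicates 7 and 8, chosen after the values were seen, 65 adjacent genes were negative and the median of the set was -2.43. Each ratio already pairs larval and adult RNA on the same array. Arrays of opposite orientation could not be paired with each other, because no replicate number occurs in both orientations. The alternatives for protein stretches and protein similarity were not run, since no protein sequences were used here. The number of arrays limits the precision.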

Other observations

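Spots outside the named genes were held to the same bounds, after centring on the median of gene spots. With arrays centred on all spots the median of all genes was -0.15. Counts of unnamed spots were not computed under that centring, so the shares below hold for centring on gene spots only. Of 7668 spots unnamed here, 28 (0.365%) had a mean of -1.5 or less and a negative ratio on all 8 arrays, the lowest at -4.10, and 160 met the mirrored bounds. Of 86 spots with several genes, 5 met the negative bounds and 3 the positive, and 0 of these 86 named one of the 88 genes. Among the 12246 spots with 1 gene the counts were 185 (1.51%) and 320.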
